A study of Mus musculus with 24 samples.

Results

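The comparison described here set high-fat feeding against normal chow in the livers of male C57BL/6 mice labelled Cyp2b-null, that is, carrying the genotype Cyp2b9/10/13-null on their labels. It comprised 6 of the 24 liver RNA libraries of the series, chosen by their labels. Of these, 3 came from males on a diet with 60% fat for 10 weeks (HFD) and 3 from males on normal chow (ND) over the same 10 weeks. The 6 libraries of wild-type (WT) C57BL/6 males, 3 on ND and 3 on HFD, were fitted together with them and serve only as the nearest comparison. The males' age is not given in the sources used here, nor is it stated that the 3 libraries of a group came from separate animals, so p-values rest on the spread between libraries, which may be technical.

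The liver meets a high-fat diet by taking up and oxidising fatty acids under the nuclear receptor PPARα, by packing them into lipid droplets and lipoproteins, and by curbing its own synthesis of cholesterol and unsaturated fatty acids. Cytochromes P450 of the Cyp2b and Cyp3a families oxidise drugs, steroids, bile acids and unsaturated fatty acids, and their transcription answers to the nuclear receptors CAR and PXR. Cyp2b9, Cyp2b10 and Cyp2b13 are the hepatic Cyp2b genes that the label names as deleted. Many liver genes also follow the circadian clock, in which Arntl and Clock drive transcription and Nr1d1, Nr1d2, Per and Cry proteins restrain it.

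The 3 targeted genes were low on both diets and not at 0. Cyp2b9 had 24, 29 and 59 counts in ND libraries 1, 2 and 3 and 36, 85 and 19 in HFD libraries 1, 2 and 3. Cyp2b10 had 4, 15 and 15 counts on ND and 7, 26 and 5 on HFD. Cyp2b13 had 7, 89 and 43 counts on ND and 64, 37 and 45 on HFD. The diets overlapped for each of them, and none passed the test. In CPM, counts scaled to library size, Cyp2b9 was at 3.21, 1.56 and 3.86 CPM on ND in these males, above the 0.0865, 0.217 and 0.342 CPM of the WT males on ND, while on HFD it was at 2.03, 7.57 and 1.83 CPM in these males and 26.7, 4.67 and 36.1 CPM in WT males. Cyp2b10 was at 0.535, 0.806 and 0.981 CPM on ND, below the 8.39, 3.68 and 2.56 CPM of WT males, and on HFD the genotypes overlapped. Cyp2b13 overlapped between the genotypes on both diets, at a mean of 2.84 ± 1.92 CPM (SD, n = 3) against 2.72 ± 0.689 in WT males on ND, and 3.74 ± 0.531 against 3.83 ± 0.0645 on HFD. Because such counts do not settle the genotype, the animals are called males labelled Cyp2b-null, and every direction below is drawn from that label. Reads can also be shared with close relatives: of the 50-base windows along the longest Cyp2b13 transcript, 27.3% occurred in transcripts of other genes, against 11.2% for Cyp2b9 and 9.69% for Cyp2b10.

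ND library 1 stood apart from the other libraries before any test. Differences are therefore given without it and with it; where a sentence names no fit, its adjusted p and its difference from WT males are from the fit without it. In the fit with it, no gene passed in either genotype or for their difference. It held 8282510 counts, against 10531009 to 18508609 in the other 5. The 13 mitochondrially encoded protein genes took 32.0% of its counts, against 6.99% and 3.45% in ND libraries 2 and 3 and 4.62%, 4.82% and 7.59% in the HFD libraries (exact permutation test of HFD against ND over 3 and 3 libraries, two-sided p = 0.7, smallest possible 0.1). Of the 14873 genes tested, 70.7% were higher or lower in it than in all other 11 male libraries, against 6.52% to 16.5% in the other labelled-null libraries. Summed lymphocyte and neutrophil markers reached 167 CPM in it and 12.03 to 21.17 CPM in the other 5, with Camp and Mpo at 0 throughout. Hepatocyte-defining genes summed to 62482 CPM in it and to between 99417 and 158624 CPM in the others. Albumin, the largest part of that sum, was at 25354 CPM in it and 53489 to 89398 CPM in the others. Other members went both ways. Cps1 was at 183 CPM in it and 651 to 1039 CPM in the others, while Pck1 was at 5605 CPM in it and 1780 to 4594 CPM in the others. Tat, Ttr and Hnf4a lay within the range of the others. Fewer cells of a type and less RNA per cell cannot be told apart in such bulk samples.

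**Figure D1:**
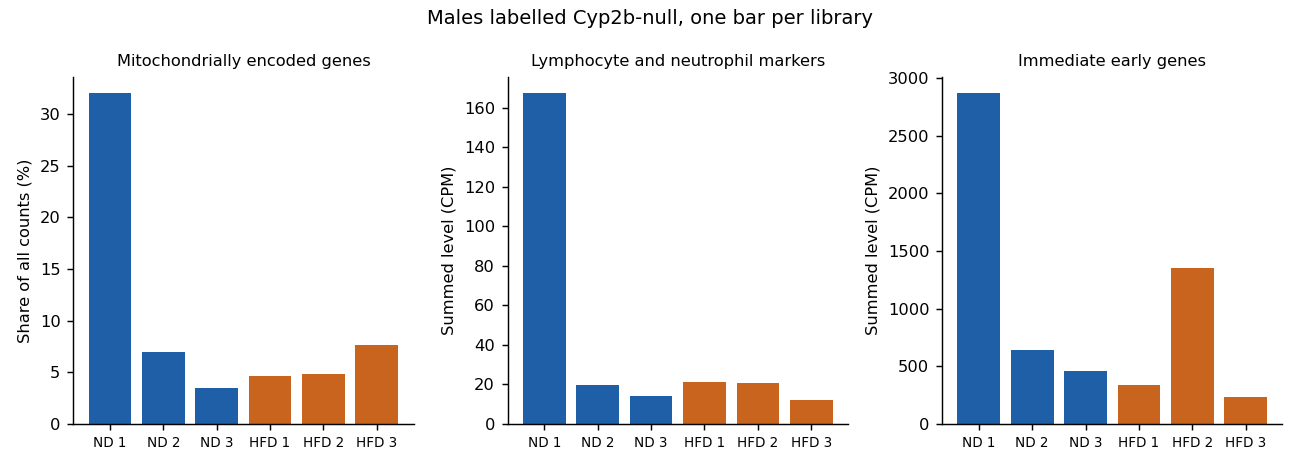
Values of the 6 libraries of males labelled Cyp2b-null, 1 bar per library: the percent of counts from mitochondrially encoded protein genes, and the summed CPM of lymphocyte and neutrophil markers and of immediate early genes. ND library 1 is the highest in each panel, at 32.0%, 167 CPM and 2865 CPM, and HFD library 2 is the next highest for immediate early genes, at 1348 CPM.

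With all 3 ND libraries, no gene passed: 0 of 14873 (0.0%) had an adjusted p below 0.05 in edgeR's quasi-likelihood test on the 12 male libraries, while 1657 (11.1%) had an unadjusted p below 0.05, 394 higher and 1263 lower on HFD, and DESeq2 called 110. Without ND library 1, 13 of 15139 genes (0.0859%) passed in edgeR, 6 higher (0.0396%) and 7 lower (0.0462%) on HFD, out of 978 (6.46%) with an unadjusted p below 0.05. The 13 genes had the same direction in both fits. For none of the 13 did the HFD libraries overlap ND libraries 2 and 3, where 19.9% of all genes tested had such a separation. The 13 were picked by comparing those libraries, so this separation is not separate support. For 10 of them ND library 1 also lay on the ND side, a separation over 6 libraries that 12.1% of all genes had. Without ND library 1, 3009 of the 15139 genes tested were apart, and with it 1799 of the 14873 genes tested. Among all genes in both fits, 29.8% changed sign when ND library 1 was left out. The fits share every other library, so the same direction of the 13 is not separate support either.

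Genes that fell on HFD included an enzyme of taurine synthesis, 2 Cyp3a enzymes, the leptin receptor, a tubulin, a tubulin ligase-like enzyme and a membrane protein. Genes that rose included a regulator of glycogen synthesis, a thioesterase, a pair of solute carriers, a guidance molecule and a gene known from T cells.

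Csad had the smallest p without ND library 1. It encodes cysteine sulfinic acid decarboxylase, the committed step of hepatic taurine synthesis, and lies on chromosome 15 (15:102176999-102204724, minus strand, GENCODE annotation of GRCm38.p6). Its level was 185, 406 and 514 CPM in ND libraries 1, 2 and 3 and 57.0, 50.1 and 69.3 CPM in HFD libraries 1, 2 and 3, so that every HFD library lay below every ND library. The log2 difference was -2.65 ± 0.356 (SE) with all ND libraries (edgeR adjusted p = 0.0563) and -2.97 ± 0.215 without ND library 1 (edgeR adjusted p = 2.77e-05). It was the one gene of the 13 to pass under each of 12 other settings and left-out libraries of that fit, between -3.12 and -2.79. WT males showed -2.40 (edgeR adjusted p = 0.000152), and the test of the difference between genotypes gave -0.56 (95% interval -1.17 to 0.05, edgeR adjusted p = 0.669), and -0.24 with ND library 1 (95% interval -1.27 to 0.79). Csad shares exon sequence positions with Zfp740 on the other strand. Zfp740 had 375 to 1019 counts and a log2 difference of -0.50 ± 0.240 (edgeR adjusted p = 0.793) and -0.56 with ND library 1, and whether the counting used strand is not given in the sources used here.

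Neighbours of Csad in sulfur amino acid and bile acid metabolism did not pass. Cdo1, which makes the substrate of Csad from cysteine, differed by -0.25 on the log2 scale without ND library 1 and by -0.05 with it. Cbs and Cth, the enzymes of transsulfuration, differed by -0.54 and 0.78 without it and by -0.47 and 1.11 with it. Baat, which joins taurine to bile acids, differed by 0.15 and 0.35, and Bhmt, which remethylates homocysteine, was at 252, 976 and 348 CPM on ND and 1749, 3227 and 1848 CPM on HFD. Its HFD libraries all lay above its ND libraries, with a log2 difference of 1.78 without ND library 1 (edgeR adjusted p = 0.283) and 2.11 with it.

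The 250 bases before the RefSeq start of Csad are printed here because its call held under every other setting of the fit without ND library 1, and those of Cyp3a41a and Cyp3a44 because both genes fell and their promoters can be set side by side. All come from RefSeq on GRCm38.p6 and are written 5′ to 3′ on the gene's strand, with matches to the motifs searched in capitals. Csad lies at chr15:102205053-102205302, Cyp3a41a at chr5:145720137-145720386 and Cyp3a44 at chr5:145805875-145806124, each on the minus strand.
Csad: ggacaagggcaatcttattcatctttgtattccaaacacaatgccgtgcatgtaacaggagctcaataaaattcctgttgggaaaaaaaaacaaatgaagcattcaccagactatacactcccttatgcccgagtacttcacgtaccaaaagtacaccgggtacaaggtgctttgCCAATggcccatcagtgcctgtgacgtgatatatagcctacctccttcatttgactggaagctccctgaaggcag
Cyp3a41a: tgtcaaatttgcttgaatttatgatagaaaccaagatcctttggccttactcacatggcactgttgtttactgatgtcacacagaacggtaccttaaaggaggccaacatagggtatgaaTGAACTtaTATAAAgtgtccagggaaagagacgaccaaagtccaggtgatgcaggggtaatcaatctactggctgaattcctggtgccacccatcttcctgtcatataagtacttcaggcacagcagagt
Cyp3a44: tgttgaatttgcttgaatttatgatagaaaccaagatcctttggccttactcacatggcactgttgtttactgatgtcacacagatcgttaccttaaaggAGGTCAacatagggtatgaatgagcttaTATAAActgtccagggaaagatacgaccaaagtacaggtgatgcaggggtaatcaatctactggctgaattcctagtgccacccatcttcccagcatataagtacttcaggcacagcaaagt
The motifs were searched on both strands, overlaps allowed. In Csad the capitals mark a CCAAT box 75 bases before the start, present in 34.5% of 27025 RefSeq promoters of this length. In both Cyp3a promoters they mark TATAAA 122 bases before the start, present in 13.0% of promoters. A half-site of nuclear receptors is marked as well, spelled AGTTCA on the opposite strand 130 bases before the start in Cyp3a41a (11.9% of promoters) and AGGTCA 150 bases before it in Cyp3a44 (13.8%). The E-box CACGTG was in none of the 3, and in 6.05% of all promoters. The promoters of Cyp3a41a and Cyp3a44 were identical at 236 of 250 positions (94.4%). These matches describe the letters and do not show that a factor binds.

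The Cyp3a genes on chromosome 5 encode monooxygenases of steroids, bile acids and drugs. Cyp3a41a was at 5.62, 101 and 55.2 CPM on ND and 11.3, 15.4 and 16.5 CPM on HFD. Its log2 difference was -1.91 ± 0.675 with all ND libraries (edgeR adjusted p = 0.434) and -2.45 ± 0.297 without ND library 1 (edgeR adjusted p = 0.00964). Cyp3a44 was at 0.937, 40.5 and 21.9 CPM on ND and 5.07, 7.84 and 7.12 CPM on HFD, with -1.68 ± 0.767 (edgeR adjusted p = 0.446) and -2.24 ± 0.330 (edgeR adjusted p = 0.0303). ND library 1 lay below every HFD library for both genes, so the call rests on ND libraries 2 and 3. Without ND library 2 as well, neither passed, with an edgeR adjusted p of 0.0570 for Cyp3a41a and 0.126 for Cyp3a44. The difference from WT males was 0.07 (95% interval -0.79 to 0.93) for Cyp3a41a and -0.02 (95% interval -0.95 to 0.91) for Cyp3a44. With ND library 1 these differences were 0.60 (95% interval -1.41 to 2.61) and 0.52 (95% interval -1.78 to 2.82).

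Cyp3a11, the most abundant of the 3 at 1693 and 3431 CPM in ND libraries 3 and 2 and 368, 758 and 571 CPM on HFD, did not pass, with -2.18 ± 0.408 without ND library 1 (edgeR adjusted p = 0.108) and -1.68 with it (edgeR adjusted p = 0.435). ND library 1 was at 295 CPM. Counts of these paralogues are uncertain. Of the 50-base windows along the Cyp3a41a transcript, 98.6% occurred in transcripts of other genes and 93.7% in Cyp3a41b, against 26.5% for Cyp3a44 and 14.8% for Cyp3a11. Cyp3a13 and Cyp3a25, further members, differed by 0.21 and -0.66 on the log2 scale without ND library 1, by 0.50 and -0.59 with it, and did not pass. The receptors Nr1i2 (PXR) and Nr1i3 (CAR) differed by 0.22 and 0.47 without ND library 1, and the sign turned with it, to -0.43 and -0.08. The P450 electron donor Por differed by 0.32 and 0.45, and none of these passed the threshold. Of 31 xenobiotic receptor and P450 target genes tested, 18 were higher and 13 lower on HFD without ND library 1, and 2 passed, both lower, where 0.0462% of all genes passed as lower. With ND library 1, 15 of 30 were higher and none passed, as for all genes (0.0%). The 2 that passed, Cyp3a41a and Cyp3a44, share sequence and were also on the list of female-biased liver genes. Of 34 genes of that list tested, 19 were higher and 15 lower without ND library 1, and only these 2 passed. With ND library 1, 22 were higher and none passed.

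**Figure D2:**
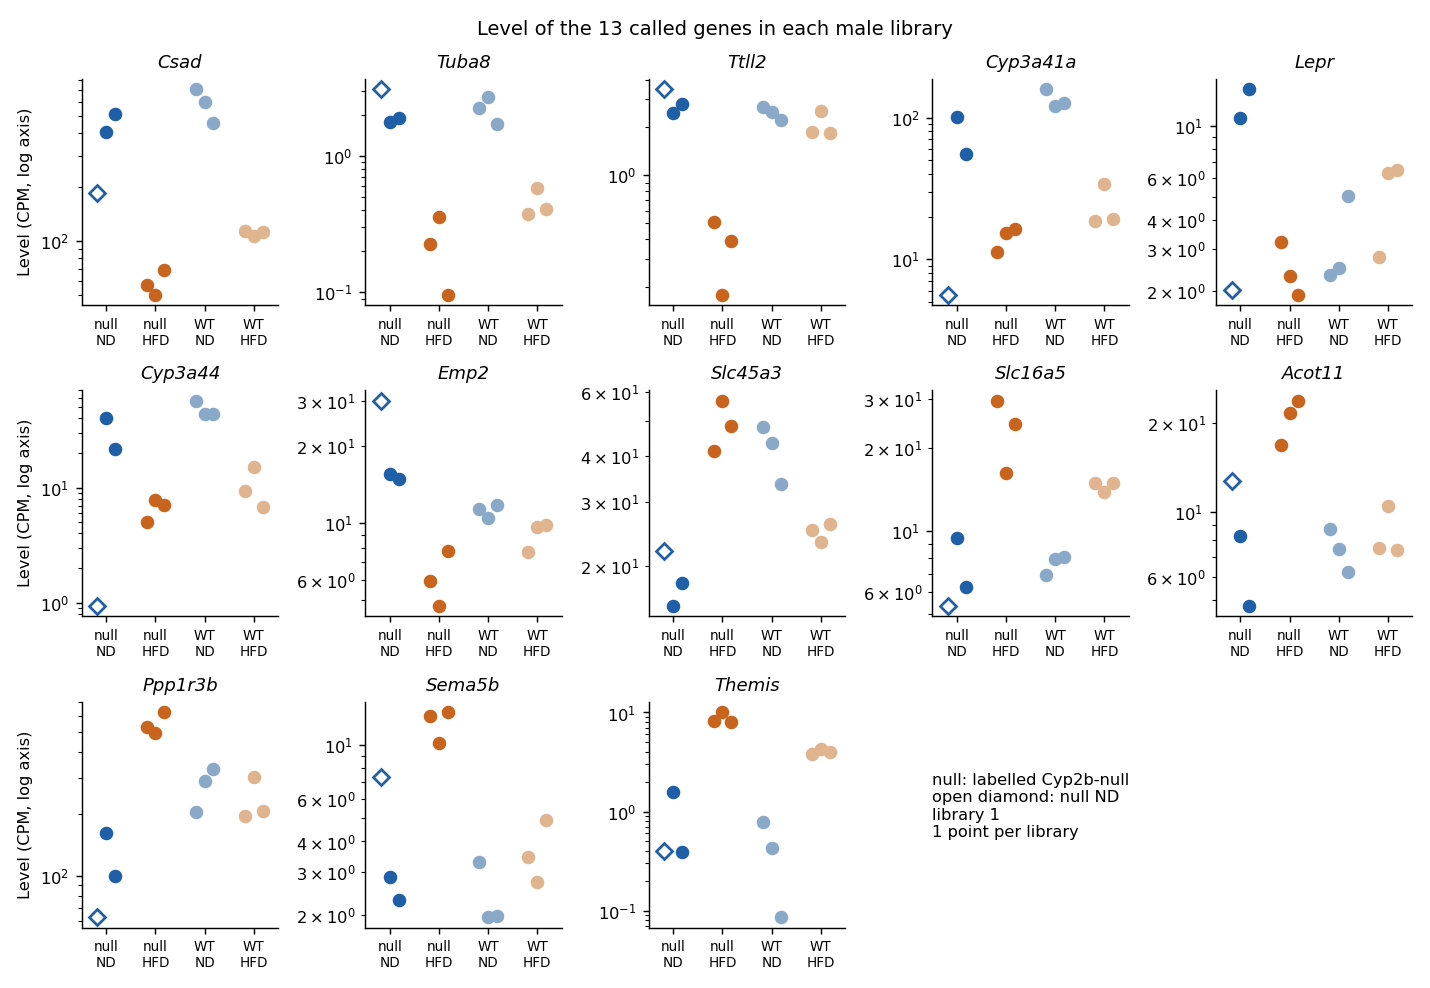
Level in CPM, on log axes, of the 13 genes that passed without ND library 1, in each of the 12 male libraries, 1 point per library, with ND library 1 of the labelled-null males as an open diamond. For Csad, Tuba8, Ttll2 and Emp2 all 3 ND libraries lie above the HFD libraries, while for Cyp3a41a, Cyp3a44 and Lepr the diamond lies at the level of the HFD libraries or below it.

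Lepr, the receptor of the fat-derived hormone leptin, was at 2.01, 10.9 and 14.3 CPM on ND and 3.21, 2.32 and 1.92 CPM on HFD. ND library 1 lay among the HFD libraries. The log2 difference without it was -2.31 ± 0.391 (edgeR adjusted p = 0.0472), and with it -1.87 ± 0.596 (edgeR adjusted p = 0.434). In WT males the difference was 0.65, and the test between genotypes gave -2.96 (95% interval -4.12 to -1.81, edgeR adjusted p = 0.181), which did not pass, and -2.53 with ND library 1. Counts per gene do not separate the receptor's isoforms.

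Ttll2, a tubulin ligase-like enzyme, was at 3.48, 2.47 and 2.81 CPM on ND and 0.507, 0.178 and 0.385 CPM on HFD. It fell by 2.79 on the log2 scale without ND library 1 (edgeR adjusted p = 0.0178), and the value with it was -2.94 (edgeR adjusted p = 0.0563). Tuba8, an α-tubulin, was at 3.08, 1.77 and 1.90 CPM on ND and 0.225, 0.356 and 0.0962 CPM on HFD. It fell by 2.96 without ND library 1 (edgeR adjusted p = 0.0394), the value with it was -3.23 (edgeR adjusted p = 0.0863), and WT males showed -2.29 (edgeR adjusted p = 0.0272). For both genes the diets were fully apart in all 6 libraries, at levels below 4 CPM.

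Emp2, an epithelial membrane protein, was at 30.2, 15.5 and 14.8 CPM on ND and 5.91, 4.72 and 7.79 CPM on HFD. ND library 1 was the highest of all, so leaving it out brought the log2 difference from -1.71 ± 0.303 (edgeR adjusted p = 0.156) to -1.31 ± 0.221 (edgeR adjusted p = 0.0472). WT males showed -0.31, and the 95% interval of the difference between genotypes ran from -1.65 to -0.35 (edgeR adjusted p = 0.425), and from -2.32 to -0.49 with ND library 1.

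Among the genes that rose, Ppp1r3b was the most abundant. It encodes the hepatic subunit that brings protein phosphatase 1 to glycogen and so promotes glycogen synthesis, and lies at chr8:35375739-35388139 on the plus strand. Its level was 62.8, 162 and 99.6 CPM on ND and 533, 495 and 630 CPM on HFD, with every HFD library above every ND library. The log2 difference was 2.35 ± 0.359 with all ND libraries (edgeR adjusted p = 0.0863) and 2.08 ± 0.289 without ND library 1 (edgeR adjusted p = 0.0178). Of 12 other settings it failed 1, the removal of ND library 3 as well (edgeR adjusted p = 0.301). In WT males Ppp1r3b was at 204, 291 and 331 CPM on ND and 195, 303 and 206 CPM on HFD. The labelled-null males thus lay below the WT range on ND and above it on HFD. The test between genotypes gave 2.31 (95% interval 1.52 to 3.10), with an edgeR adjusted p of 0.153, which did not pass, and 2.58 with ND library 1.

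Of the 35 genes of glucose and glycogen handling tested, Ppp1r3b included, 27 were higher and 8 lower, with a median log2 difference of 0.15, and Ppp1r3b alone passed, where 0.0396% of all genes passed as higher. With ND library 1, 26 were higher with a median of 0.41 and none passed (0.0% of all genes), against a median of -0.01 over all genes in both fits. Gys2, the hepatic glycogen synthase, was at 687, 413 and 631 CPM on ND and 301, 371 and 324 CPM on HFD, a log2 difference of -0.65 (edgeR adjusted p = 0.560) and -0.80 with ND library 1, where WT males showed 0.93. Pygl, which breaks glycogen down, differed by 0.25 and Pck1, of gluconeogenesis, by -0.07, and with ND library 1 by 0.59 and -0.43. G6pc, which releases glucose, was at 399, 3597 and 824 CPM in HFD libraries 1, 2 and 3, so that HFD library 2 stood apart.

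Slc45a3, a transporter of the solute carrier family known from the prostate, was the one gene whose diet effect passed the test of a difference between genotypes. It was at 22.1, 15.6 and 18.0 CPM on ND and 41.3, 56.7 and 48.3 CPM on HFD in males labelled Cyp2b-null, with HFD above ND in all 6 libraries. In WT males the order was the opposite, with 48.1, 43.5 and 33.5 CPM on ND and 25.1, 23.2 and 26.1 CPM on HFD. The log2 difference in labelled-null males was 1.40 ± 0.219 with all ND libraries (edgeR adjusted p = 0.0863) and 1.54 ± 0.198 without ND library 1 (edgeR adjusted p = 0.0109). In WT males it was -0.75 ± 0.170 (edgeR adjusted p = 0.0622). The difference between genotypes was 2.29 ± 0.260 (95% interval 1.73 to 2.84, edgeR adjusted p = 0.00764), 1 call among 15139 genes (0.00661%). With all ND libraries it was 2.15 (edgeR adjusted p = 0.196), and none of 14873 genes passed that test (0.0%), while 691 had an unadjusted p below 0.05 and DESeq2 called 19.

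The 250 bases before the RefSeq start of Slc45a3 (chr1:131962665-131962914, plus strand, GRCm38.p6) are shown because the gene alone passed that test.
Slc45a3: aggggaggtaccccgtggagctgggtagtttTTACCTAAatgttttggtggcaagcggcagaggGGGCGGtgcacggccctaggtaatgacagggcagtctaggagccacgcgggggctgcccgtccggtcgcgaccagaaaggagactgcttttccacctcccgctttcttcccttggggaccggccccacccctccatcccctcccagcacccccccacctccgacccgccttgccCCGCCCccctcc
The capitals mark a D-box, TTANGTAA on the opposite strand, 219 bases before the start, found in 2.11% of all promoters, and the GC box GGGCGG 186 and 12 bases before it, found in 32.9%. A second transcript, Gm29103, shares its exons on the same strand, and 10.6% of the 50-base windows of Slc45a3 occurred in it. The deposited counts do not hold that symbol. Without ND library 2 or ND library 3 as well as ND library 1 the rise did not pass, with an edgeR adjusted p of up to 0.0941.

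Acot11, a thioesterase that splits fatty acyl-CoA and limits the supply of fatty acids to oxidation, was at 12.7, 8.28 and 4.77 CPM on ND and 16.8, 21.6 and 23.9 CPM on HFD. It rose by 1.66 ± 0.279 without ND library 1 (edgeR adjusted p = 0.0472), and the value with it was 1.29 (edgeR adjusted p = 0.362). Slc16a5, a member of the monocarboxylate transporter family, was at 5.35, 9.46 and 6.28 CPM on ND and 29.7, 16.2 and 24.3 CPM on HFD. It rose by 1.57 ± 0.259 without ND library 1 (edgeR adjusted p = 0.0462), and the value with it was 1.72 (edgeR adjusted p = 0.0863). Both genes had all HFD libraries above all ND libraries, and WT males showed 0.16 for Acot11 and 0.94 for Slc16a5, neither past the threshold. Slc16a5 overlaps Gm11695 on the other strand, which had 4 to 39 counts and a log2 difference of 1.24 (edgeR adjusted p = 0.682) and 1.34 with ND library 1.

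Sema5b, a semaphorin known for guiding axons, was at 7.36, 2.85 and 2.29 CPM on ND and 13.2, 10.2 and 13.7 CPM on HFD. It rose by 2.26 ± 0.324 without ND library 1 (edgeR adjusted p = 0.0178), and the value with it was 1.61 (edgeR adjusted p = 0.408). Themis, a signalling protein of developing T cells, was at 0.401, 1.56 and 0.392 CPM on ND and 8.22, 10.2 and 8.08 CPM on HFD. It rose by 3.13 ± 0.499 (edgeR adjusted p = 0.0394), and the value with ND library 1 was 3.38 (edgeR adjusted p = 0.111). WT males showed a rise of 3.20 (edgeR adjusted p = 0.0236). The T cell marker Cd3e, with 3 to 16 counts, was at 2.01, 0.538 and 0.327 CPM on ND and 0.901, 1.07 and 0.289 CPM on HFD. Its diets overlapped, and its log2 difference was 0.80 ± 0.604 without ND library 1 (edgeR adjusted p = 0.941) and -0.18 with it. Such counts do not show whether T cells differed between the diets.

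Exons of 4 more of these genes overlap others in the annotation, so reads from the shared stretches may come from either. Themis overlaps 4930519F09Rik, with 0 to 15 counts, and Acot11 overlaps Fam151a, with 0 counts in all 6 libraries, both on the other strand. Ttll2 overlaps Gm49630 on the same strand and Tuba8 overlaps Gm15856 on the other. The deposited counts hold neither symbol.

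**Figure D3:**
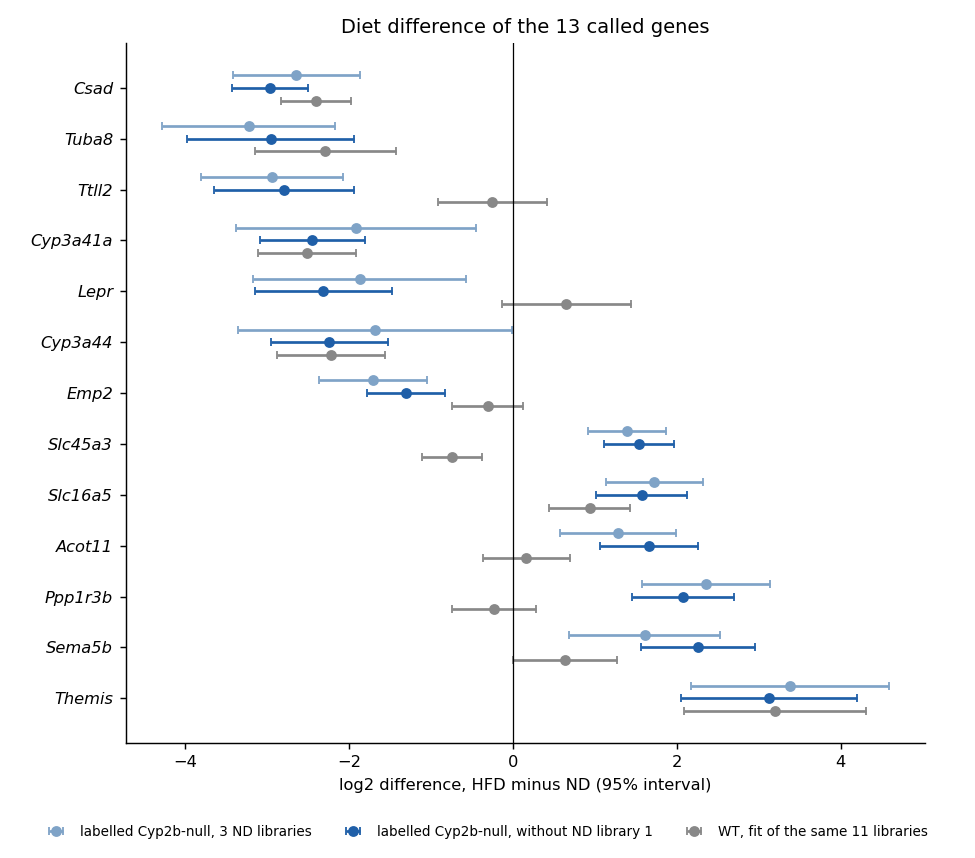
Log2 difference between HFD and ND, with 95% intervals, of the 13 genes: in males labelled Cyp2b-null with 3 ND libraries (light blue), without ND library 1 (dark blue), and in WT males in the same fit of 11 libraries (grey). Csad, Tuba8, Cyp3a41a, Cyp3a44 and Themis lie close together in both genotypes, while the intervals of Slc45a3 lie on opposite sides of 0.

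Of the 13 genes, 10 had the same direction in WT males, where 109 of 15139 genes passed in that fit (0.72%) and 0 of 14873 (0.0%) in the fit of all 12 libraries. Over all 15139 genes the log2 differences of the genotypes were only weakly correlated in that fit (Pearson 0.193, Spearman 0.165). The 5 that passed in both genotypes, all in the same direction, were Csad, Cyp3a41a, Cyp3a44, Themis and Tuba8, which make up 38.5% of the calls in labelled-null males and 4.59% of those in WT males. Lepr, Ppp1r3b and Slc45a3 had opposite signs. Leaving out a further library ended calls for all but Csad. Between 4 and 7 genes passed with ND library 2 or 3 or HFD library 1, 2 or 3 left out as well. Cyp3a41a and Ppp1r3b passed in 4 of these 5 fits and Slc45a3 in 3, while Acot11, Lepr and Tuba8 passed in 0 and the other 6 in 1 each.

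Genes of fatty acid oxidation and PPARα targets stood mostly higher on HFD without any of them passing. Of 46 tested, 39 were higher and 7 lower, with a median log2 difference of 0.21, and 38 were higher with a median of 0.46 with all ND libraries. Over all genes tested 7466 of 15139 were higher and the median was -0.01. Cyp4a10, a fatty acid ω-hydroxylase, was at 48.3, 229 and 142 CPM on ND and 318, 351 and 364 CPM on HFD, a log2 difference of 0.89 (edgeR adjusted p = 0.550) and 1.30 with ND library 1. Vnn1, a pantetheinase, had HFD libraries at 84.5 to 93.9 CPM above ND libraries at 21.4 to 62.8 CPM and a difference of 0.69 (edgeR adjusted p = 0.572) and 1.01 with ND library 1. Cpt1a, which admits fatty acids to mitochondria, was at 134, 559 and 479 CPM on ND and 661, 579 and 550 CPM on HFD, with a difference of 0.20 without ND library 1 and 0.61 with it. WT males showed 1.04, with an edgeR adjusted p of 0.0206 without ND library 1 and 0.702 with it. The test of the difference for Cpt1a gave -0.84 (95% interval -1.35 to -0.33, edgeR adjusted p = 0.397) without ND library 1 and -0.43 (95% interval -1.66 to 0.81) with it. In the WT males 39 of the 46 were also higher. In the fit without ND library 1, 4 passed there, all higher, where 0.436% of all genes passed as higher. None passed in WT males in the fit with it (0.0% of all genes).

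Fatty acid uptake and lipid storage genes showed a mixed picture, with no member past the threshold. Of 20 uptake and binding genes, 14 were higher in either fit. Cd36, a fatty acid translocase, was at 2.14, 58.5 and 25.5 CPM on ND and 78.8, 66.1 and 110 CPM on HFD, with the diets apart and a log2 difference of 1.01 (edgeR adjusted p = 0.589) and 1.55 with ND library 1. Fabp5, a fatty acid binding protein, was at 2.41, 25.2 and 36.0 CPM on ND and 3.21, 3.92 and 5.20 CPM on HFD, and ND library 1 lay below the HFD libraries. Plin2, the coat protein of lipid droplets, differed by 0.04 without ND library 1 and by 0.45 with it. Pnpla2, the triglyceride lipase ATGL, was at 80.5, 74.4 and 65.1 CPM on ND and 45.6, 39.5 and 49.5 CPM on HFD (log2 difference -0.64, edgeR adjusted p = 0.484, and -0.71 with ND library 1), and its inhibitor G0s2 was at 114, 139 and 71.0 CPM on ND and 365, 159 and 281 CPM on HFD (log2 difference 1.35, edgeR adjusted p = 0.620, and 1.31 with ND library 1). Both had HFD and ND libraries apart, as were those of 12.1% of all genes tested, counting both directions.

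Cholesterol synthesis and uptake genes stood mostly lower on HFD, again with none past the threshold. Of 26 tested, 23 were lower and 3 higher without ND library 1, with a median of -0.48, and 18 lower and 8 higher with it, with a median of -0.25. Fdps, which makes farnesyl diphosphate, was at 158, 234 and 156 CPM on ND and 116, 57.2 and 83.7 CPM on HFD (log2 difference -1.18, edgeR adjusted p = 0.549, and -1.09 with ND library 1). Sqle, the squalene epoxidase, differed by -0.56 without ND library 1 and -0.14 with it. For fatty acid synthesis, 15 of 27 genes were higher, and 17 with ND library 1. Fasn differed by 0.48 and Acaca by -0.58, and with ND library 1 by 0.46 and -0.75. Scd1, the stearoyl-CoA desaturase, lay between 893 and 7687 CPM on chow and between 1064 and 4219 CPM on HFD, so that the diets overlapped. The desaturases Fads1 and Fads2, which act on polyunsaturated fatty acids, differed by -0.22 and 0.01 without ND library 1 and by 0.25 and 0.53 with it, so that the sign of Fads1 turned.

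**Figure D4:**
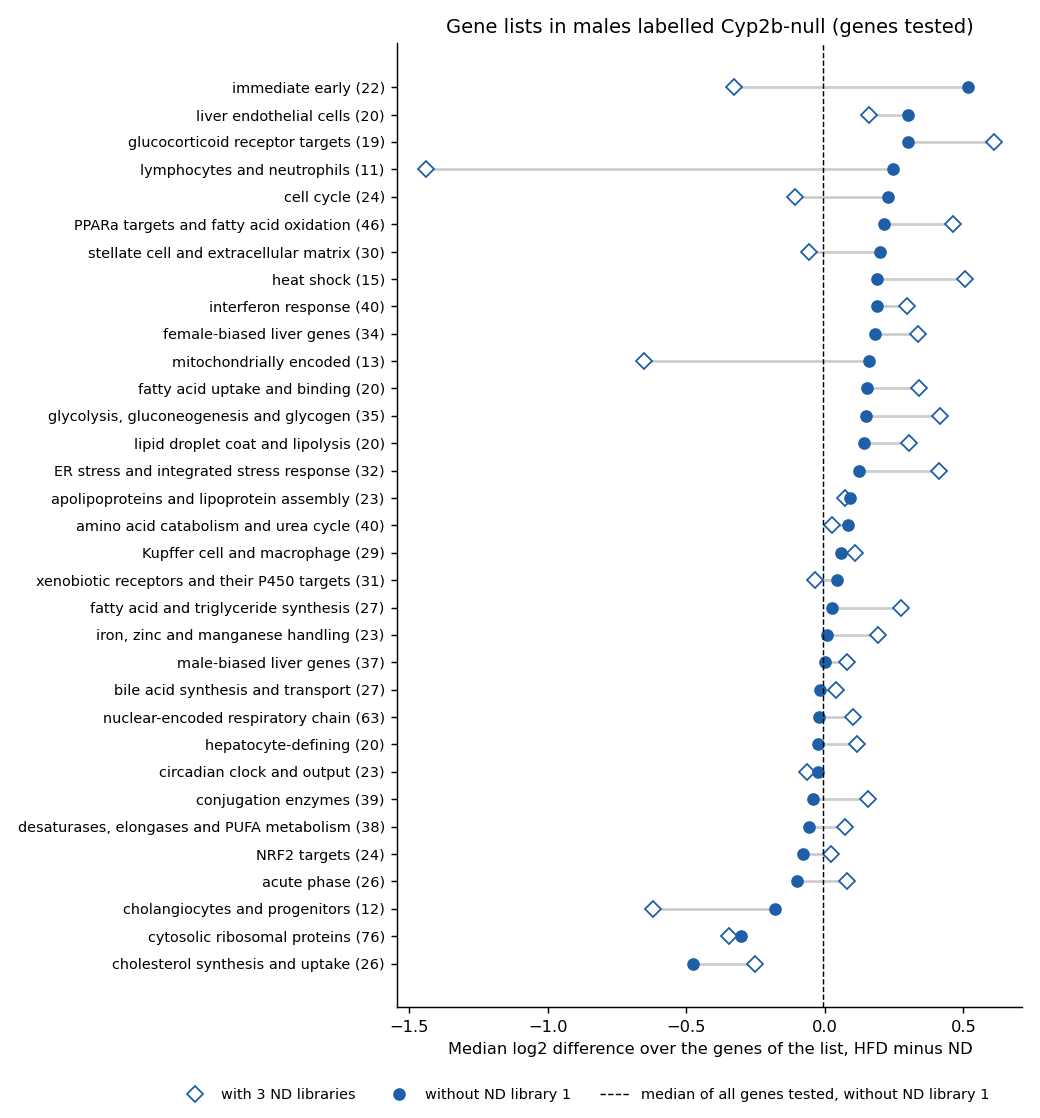
Median log2 difference between HFD and ND over the genes of each list with at least 10 genes tested, in males labelled Cyp2b-null, with all 3 ND libraries (open diamonds) and without ND library 1 (filled circles). Grey lines join the 2 fits, the dashed line is the median of all genes tested (-0.01), and the lymphocyte, mitochondrially encoded and immediate early lists move furthest when ND library 1 is left out, while several lists nearer 0 also change sides.

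Several lists changed sign with ND library 1, and 3 of them moved furthest of those plotted. The 13 mitochondrially encoded genes had a median of -0.65 with it, 3 of them higher, and 0.16 without it, all 13 higher. Lymphocyte and neutrophil markers went from -1.44 (1 of 11 higher) to 0.25 (7 of 11), and immediate early genes, which respond within minutes to stress, from -0.33 (9 of 22) to 0.52 (17 of 22). Acta2, an actin of smooth muscle and activated stellate cells, was at 60.6 CPM in ND library 1, 1.24 and 1.05 CPM in ND libraries 2 and 3 and 1.83 to 5.80 CPM on HFD, and its log2 difference went from -2.33 to 1.83. Lists that changed sign by less included stellate cell and matrix genes (-0.06 with ND library 1 and 0.20 without it), cell cycle genes (-0.11 and 0.23), hepatocyte-defining genes (0.12 and -0.02), acute phase genes (0.08 and -0.10) and NRF2 targets (0.02 and -0.08). In HFD library 2 immediate early genes summed to 1348 CPM, against 339.8 and 228.5 CPM in HFD libraries 1 and 3. The part of cell composition or RNA state in these differences was not tested.

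Cytosolic ribosomal protein genes were lower in both fits, 71 of 76 without ND library 1 with a median of -0.30 and 65 of 76 with it with a median of -0.35, and none passed. Of 20 liver endothelial markers all were higher without ND library 1 (median 0.30), and 11 with it. Summed endothelial markers were 794, 480.1 and 374.5 CPM on ND and 581, 494 and 429.7 CPM on HFD, so the diets overlapped. For the interferon response, 30 of 40 genes stood higher (median 0.19), and 27 with ND library 1 (median 0.30), with Rsad2, an antiviral enzyme, at 2.81, 4.78 and 5.43 CPM on ND and 11.8, 11.8 and 8.37 CPM on HFD (log2 difference 1.06, edgeR adjusted p = 0.173, and 1.27 with ND library 1). Kupffer cell and macrophage markers summed to 402, 722 and 333 CPM in the ND libraries and 695, 498 and 414 CPM in the HFD libraries, and of 29 tested 19 were higher, and 20 with ND library 1.

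Clock genes did not pass in these males, though several had diets that did not overlap. Of 23 tested, 11 were higher and 12 lower without ND library 1, and of 22 tested with it, 9 were higher and 13 lower. Nr1d1, the repressor REV-ERBα, was at 333, 118 and 155 CPM on ND and 58.0, 18.7 and 25.1 CPM on HFD, a log2 difference of -1.999 ± 0.448 without ND library 1 (edgeR adjusted p = 0.222) and -2.57 with it (edgeR adjusted p = 0.212). Dbp, an output factor that binds D-boxes, was at 709, 201 and 266 CPM on ND and 120, 52.8 and 82.1 CPM on HFD (log2 difference -1.46, edgeR adjusted p = 0.572, and -2.21 with ND library 1). Cry1, a repressor of the clock, was at 7.63, 7.26 and 9.28 CPM on ND and 15.6, 25.0 and 21.6 CPM on HFD (log2 difference 1.32, edgeR adjusted p = 0.173, and 1.36 with ND library 1). For these 3 genes every HFD library lay on the same side of every ND library, a separation that 12.1% of all genes tested had over the 6 libraries and 19.9% without ND library 1. Arntl, the activator BMAL1, was at 2.68, 2.04 and 1.70 CPM on ND and 4.90, 3.83 and 3.27 CPM on HFD, a difference of 1.10 (edgeR adjusted p = 0.748) and 0.93 with ND library 1. WT males showed -2.09 (edgeR adjusted p = 0.0416), and -2.08 in the fit with ND library 1 (edgeR adjusted p = 0.311). The test of the difference for Arntl gave 3.19 (95% interval 1.78 to 4.60, edgeR adjusted p = 0.249), and 3.01 with ND library 1. The time of day of sampling is not given in the sources used here, and its part was not tested.

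**Figure D5:**
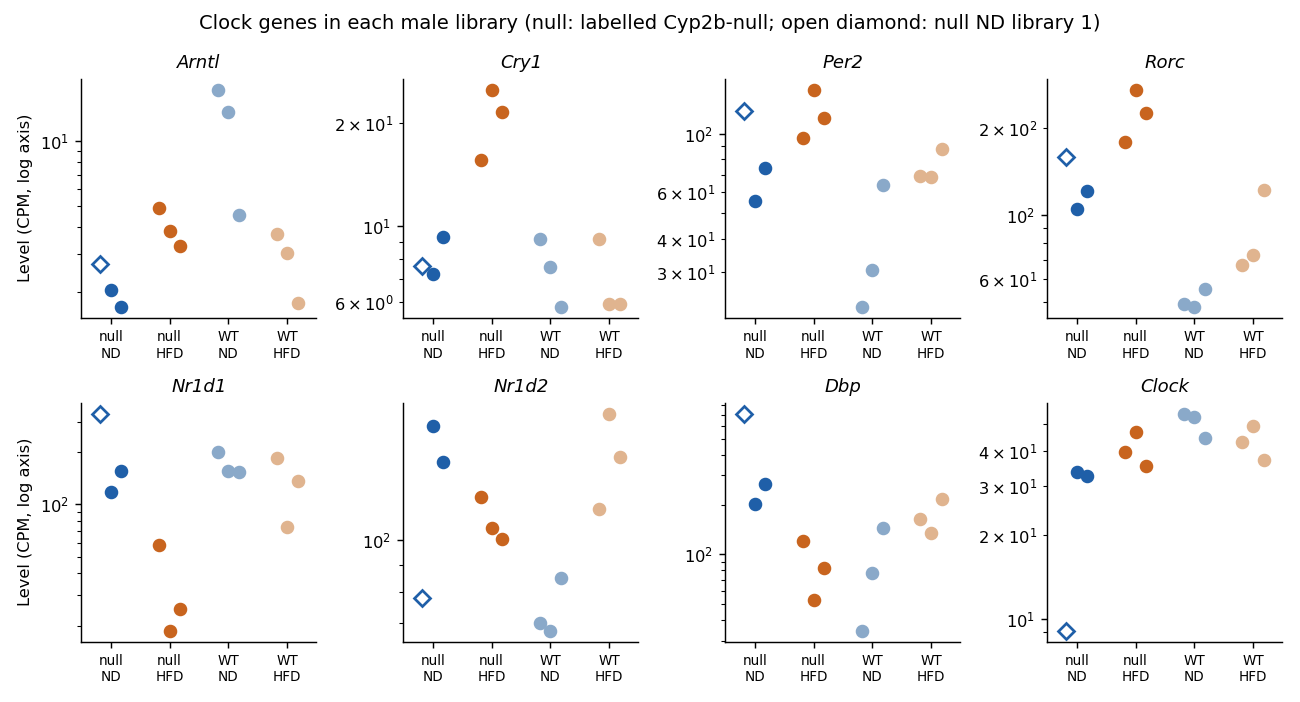
Level in CPM, on log axes, of 8 clock genes in each of the 12 male libraries, 1 point per library, with ND library 1 of the labelled-null males as an open diamond. In the labelled-null males Nr1d1 and Dbp lie lower and Cry1 and Arntl higher on HFD in all 6 libraries, while Clock in ND library 1, at 9.10 CPM, lies below all others.

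Some sex-biased and stress genes had large differences that did not pass. Cyp2a4, a steroid hydroxylase with female-biased expression, was at 693, 195 and 569 CPM on ND and 55.4, 31.6 and 115 CPM on HFD, with all HFD libraries lower. Its log2 difference was -2.50 ± 0.566 without ND library 1 (edgeR adjusted p = 0.264) and -2.85 with it. In WT males Cyp2a4 was between 2.51 and 12.9 CPM in all 6 libraries. Cyp2a22 was at 31.6, 3.17 and 2.81 CPM on ND and 17.2, 21.02 and 13.4 CPM on HFD, so its difference was 2.52 without ND library 1 (edgeR adjusted p = 0.201) and 0.50 with it. Of 32 genes of ER stress and the integrated stress response, 22 were higher on HFD (median 0.12), and 23 with ND library 1 (median 0.41). Against that majority, the targets Trib3 and Chac1 differed by -1.54 and -1.64 with all HFD libraries lower, and by -1.98 and -1.88 with ND library 1. Tsc22d3, a glucocorticoid target, differed by 1.22 in both fits with all HFD libraries higher, and none of these passed the threshold. Saa4, a constitutive serum amyloid of lipoproteins, was at 199, 236 and 255 CPM on ND and 378, 479 and 468 CPM on HFD, a difference of 0.85 ± 0.176 (edgeR adjusted p = 0.169) and 0.94 with ND library 1.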

How the data were processed

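The authors deposited raw counts of reads per gene symbol, whole numbers in 1 table for the males. The submitters' processing notes list Subread, GSNAP, Trimmomatic, FastQC and edgeR, and GRCm38.p5 as build; whether counting used strand is not given in the sources used here. Counts of 1806 symbols found in several rows were summed, and 25 symbols turned into dates were kept in the totals but not tested. The 12 male libraries were fitted with edgeR 4.0.16 (R 4.3.3): 1 term per group, TMM scaling, filterByExpr, robust quasi-likelihood test, Benjamini-Hochberg over all genes tested, a call at an adjusted p below 0.05. The fit was repeated without ND library 1; the common biological coefficient of variation was 0.340 with it and 0.219 without it. CPM use the TMM factors of the 12 libraries. SE is the log2 difference divided by the root of F. The fits were tested on simulated data in which ND library 1 did not stand apart and all genes had a common spread. That test therefore does not cover the effect of ND library 1. Replicate pairs differed beyond sampling noise (chi-square per degree of freedom at least 27.6).

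The genes named are the targeted genes, calls at a mean log2 CPM of 1 or more whose libraries did not overlap, and marked genes of 39 lists; Ttll2 and Tuba8, calls below that level, other list members and neighbours were chosen after their values were seen. The members and lists were chosen with earlier results of these data known. Other settings were DESeq2 1.42.0, RLE scaling, a replicate block, only the 2 compared groups, no filter, the first of duplicated symbols, leaving out mitochondrially encoded genes, and leaving out each library. Promoters are RefSeq's and gene positions GENCODE's.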

Additional observations from a re-analysis of the deposited data

Results flagged for a closer look

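Slc45a3 was singled out because the diet effect differed between the male genotypes by the test of the difference itself. The diet effect in males labelled Cyp2b-null minus that in WT males was 2.29 on the log2 scale without ND library 1 (edgeR adjusted p = 0.00764), with levels higher on HFD in 3 of 3 labelled-null libraries and lower in 3 of 3 WT libraries. With ND library 1 the same test did not pass for any gene in edgeR (0 at an adjusted p below 0.05, 691 at an unadjusted p below 0.05, 19 called by DESeq2). No other result met the criteria for a closer look; groups of 3 libraries are too small for the outlier test.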

How the results depend on the processing

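With all 3 ND libraries, no gene was called under RLE scaling, in the compared groups alone, with the first of duplicated symbols, without mitochondrially encoded genes or with a replicate block, while 26 were called with no filter and 110 by DESeq2. With 1 library left out, 0 to 28 were called: 13 without ND library 1, 28 without ND library 2 and 0 without any of the others. Without ND library 1, the 13 calls became 380 with no filter and 92 by DESeq2, both holding all 13, and 4 to 7 with a further library left out (5 without ND library 2, 4 without ND library 3, 6, 7 and 6 without HFD libraries 1, 2 and 3). The compared groups alone gave 15 calls, 8 of them shared. In WT males 0 calls became 109 without ND library 1 and 69 by DESeq2, and for the difference between genotypes 0 became 1 and 19. The causes were not tested. No named gene's called difference reversed. The replicate numbers were not taken as pairs. Same-numbered ND and HFD libraries had correlations of deviations from their group mean of 0.2055, -0.088 and 0.162, and other-numbered ones ran from -0.273 to 0.299. These values include ND library 1, and without it the deviations of the 2 ND libraries are opposite by construction. The check therefore cannot show whether the libraries were paired. The replicate block gave 0 calls with ND library 1 and 15 without it, 9 of them shared, and lost Emp2, Lepr, Slc16a5 and Tuba8.

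Depth (8282510 to 18508609 counts) limits the precision for genes of few counts. Having 2 or 3 ND libraries limits it at every level. Without ND library 1 the SE of the log2 difference was 1.16 for G6pc and 0.793 for Scd1, both far above 1 CPM.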

Other observations

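Other hepatic gene groups of the males labelled Cyp2b-null held differences that did not pass the test in edgeR. Akr1d1, Slco1a4, Lipg, Gstp1 and Gstm3 were chosen here after their values were seen. Log2 differences are those without ND library 1 unless stated. Among 27 genes of bile acid synthesis and transport, 13 were higher and 14 lower on HFD without ND library 1, and 14 and 13 with it. Akr1d1, a reductase of bile acid synthesis, was at 114, 280 and 248 CPM on ND and 415, 454 and 405 CPM on HFD, with all HFD libraries higher (log2 difference 0.69, edgeR adjusted p = 0.272, and 0.99 with ND library 1). Slco1a4, a transporter of organic anions and bile acids, was at 124, 83.4 and 106 CPM on ND and 35.0, 47.7 and 41.9 CPM on HFD, with all HFD libraries lower (log2 difference -1.19, edgeR adjusted p = 0.312, and -1.33 with ND library 1). Cyp7a1, the rate-limiting enzyme of bile acid synthesis, differed by 0.62, and by 0.999 with ND library 1, with diets that overlapped.

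Among 39 conjugation enzymes 18 were higher and 21 lower (median -0.04), and the majority turned with ND library 1, to 24 higher and 15 lower (median 0.16). The glutathione S-transferases Gstp1, Gstm1 and Gstm3 differed by -1.44, -0.90 and -1.53, and by -1.06, -1.08 and -1.43 with ND library 1. Lipg, the endothelial lipase, was at 7.63, 34.0 and 17.8 CPM on ND and 49.4, 117 and 44.7 CPM on HFD (log2 difference 1.44, edgeR adjusted p = 0.430, and 1.82 with ND library 1). Apoa4, an apolipoprotein, was at 47.2, 99.8 and 64.4 CPM on ND and 196, 105 and 289 CPM on HFD (log2 difference 1.26, edgeR adjusted p = 0.559, and 1.48 with ND library 1). In the main fit neither Apoa4 nor Gstm1 passed (edgeR adjusted p = 0.484 for Gstm1). With no filter on low counts, 380 genes passed without ND library 1, against 13 in the main fit. Gstm1 and Apoa4 were among these 380 (edgeR adjusted p = 0.00807 and 3.51e-05). Lipg and Apoa4 had every HFD library above every ND library, ND library 1 included; 12.1% of all genes tested were apart in this way in either direction. Of 15 heat shock genes 12 were higher, with a median of 0.19 without ND library 1 and 0.51 with it, and of 37 male-biased liver genes 19 were higher, with a median of 0.00, and 24 with ND library 1, where in WT males 8 were higher.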
